A study of Homo sapiens with 54 samples.

Results

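HOX genes encode homeodomain transcription factors, and 27 of the 19460 probe sets with 1 gene symbol in this series each measured 1 of them. They were chosen by name alone: every probe set whose only symbol was HOXA, HOXB, HOXC or HOXD followed by a number. The 27 comprised 10 HOXB, 9 HOXD and 7 HOXC genes and 1 HOXA gene, HOXA2. The reference table lists 39 HOX genes. Of the others, HOXC4 and HOXC6 shared 1 probe set and were kept out of the tests, and 10 HOXA genes are not analysed here. Low values were not filtered out, so all 27 were tested.

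The series holds 54 Affymetrix Gene 1.0 ST arrays of 9 established human cell lines, with 2 arrays for each line at 0 h (no agent) and after 8 h and 36 h with calcitriol, the active hormone of vitamin D. GM07019, GM07348, GM10854 and GM12878 are lymphoblastoid lines, B cells immortalized with Epstein-Barr virus. AG09309 and AG09319 are fibroblast lines, HL60 is a promyelocytic leukaemia line, K562 an erythroleukaemia line and HepG2 a liver tumour line. Each line stands for 1 donor, so a difference between 2 lines cannot be told apart from a difference between 2 people. The labels do not give a body site for the fibroblasts; as background, the ENCODE cell list describes AG09309 as toe and AG09319 as gum fibroblasts. All cells at 8 h and 36 h had calcitriol and all at 0 h had none, so a change over time holds the agent and the time in culture together. The titles mark the 2 arrays of a group BR1 and BR2 without saying what BR stands for or whether they were separate cultures, so p-values measure the spread between these arrays, which may be technical. The titles are also of 2 styles: AG09319, HepG2 and GM12878 carry 1 shared date, and the other 6 lines carry none. A difference between the fibroblast lines, or between HepG2 and AG09309, therefore cannot be told apart from whatever separates these 2 sets of arrays. Across the same divide, GM12878 had 0 of 27 HOX genes called by limma against the mean of the other 3 lymphoblastoid lines at 0, 8 or 36 h. At these times 0, 1 and 1 had an unadjusted p under 0.05. The backgrounds were 3.34%, 1.71% and 3.56% higher and 0.94%, 1.15% and 2.0% lower. With backgrounds this small, few calls could be expected, so this comparison cannot show whether the divide affects HOX values. It holds no fibroblast or HepG2 array.

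HOX genes lie in clusters, and in the embryo the order of the genes along a cluster matches the order of the body regions in which they are switched on, from head to tail and from the base of a limb to its tip. Genes with the same number in different clusters are paralogs, and high numbers are the posterior or distal ones. Adult fibroblasts keep much of the HOX pattern of the site they came from, head and gum mesenchyme from cranial neural crest has little HOX expression, and blood-forming cells use HOXA and HOXB genes.

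The promoters of neighbouring HOXD genes are shown because the HOXD results turn on single genes of the cluster: HOXD10 and, at 36 h, HOXD11 differed between the fibroblast lines, while their neighbour HOXD12 did not pass a test. The sequences are the 250 bases before the gene start, from RefSeq on GRCh38.p14, 5′ to 3′ on the plus strand. They lie at chr2:176099545-176099794 (HOXD12), chr2:176107030-176107279 (HOXD11) and chr2:176116528-176116777 (HOXD10). Capitals mark the 1 match to TGATTNAT, the composite word of PBX and HOX proteins, here on the minus strand.
HOXD12: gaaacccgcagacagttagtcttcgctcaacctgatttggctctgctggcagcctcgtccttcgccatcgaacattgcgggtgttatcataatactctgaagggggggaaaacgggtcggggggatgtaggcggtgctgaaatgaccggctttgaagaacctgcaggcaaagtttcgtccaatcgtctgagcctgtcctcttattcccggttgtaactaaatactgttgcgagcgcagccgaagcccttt
HOXD11: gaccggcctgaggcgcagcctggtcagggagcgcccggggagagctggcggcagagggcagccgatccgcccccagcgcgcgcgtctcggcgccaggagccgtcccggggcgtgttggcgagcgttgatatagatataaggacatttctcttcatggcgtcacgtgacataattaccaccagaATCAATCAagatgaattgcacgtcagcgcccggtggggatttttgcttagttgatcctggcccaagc
HOXD10: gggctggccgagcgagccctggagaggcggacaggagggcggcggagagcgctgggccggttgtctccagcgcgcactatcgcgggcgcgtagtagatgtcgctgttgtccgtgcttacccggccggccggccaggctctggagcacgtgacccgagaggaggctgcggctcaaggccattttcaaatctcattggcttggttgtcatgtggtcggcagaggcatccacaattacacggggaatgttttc
Promoter sequences were found for 11 of the 27 genes. Their median GC content was 59.2% against 58.0% over 35114 promoters of the same length, and their median number of CpG dinucleotides was 21 against 11. The HOXD10 window had 64.0% GC and 23 CpG, the HOXD11 window 61.6% and 23, and the HOXD12 window 53.2% and 16. Both strands were searched for 4 words. TGATTNAT was in 2 of the 11 promoters (HOXA2 and HOXD11) and 2.48% of all. CCATAAA, a core word of posterior HOX proteins, was in 1 (HOXD8) and 2.3% of all. TATAAA was in 1 (HOXD13) and 10.7% of all. AGGTCA, the half-site that the vitamin D receptor shares with other nuclear receptors, was in 0 of the 11 and 12.1% of all. None of the 4 words holds another, and a match is a description of the letters only.

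Over the probe sets with 1 symbol, array medians lay between 5.42 and 5.69 on the deposited log2 scale, and the replicate arrays of a group correlated at a median of 0.987. In this scale 1 unit is a doubling. Fibroblast markers (10 collagen, matrix and surface genes) were above the 75th percentile of all probe sets for 10 of 10 in AG09309 and 9 of 10 in AG09319, all 5 promyelocyte markers were in HL60, 4 of 5 erythroid markers in K562, all 9 hepatocyte markers in HepG2, and 5 to 6 of 7 B cell markers in the lymphoblastoid lines. There were 3 arrays that stood apart from the rest of their line: 1 of K562 at 36 h, 1 of HepG2 at 0 h and 1 of AG09319 at 8 h (replicate 2), the last with the lowest replicate correlation of the series, 0.897. In bulk RNA, fewer expressing cells and less RNA per cell cannot be told apart.

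Most HOX probe sets read low in every line. At 0 h the number of the 27 above the median of all probe sets was 6 in AG09309, 3 in AG09319, 4 in HepG2, 7 in K562, 3 in HL60 and 4 to 5 in the lymphoblastoid lines. Above the 75th percentile were HOXB9 and HOXB2 in K562, HOXD1 in HepG2 and no other. The HepG2 values rest on the array that stood apart: in the other array HOXD1 read 6.29, under that array's 75th percentile of 6.53, and 3 HOX genes were above its median. The arrays came without detection calls, so a low value is not shown to be above background. HOXD1, HOXD4 and HOXD13 were above the median in every line, with the 0 h means of HOXD13 between 5.75 (HL60) and 6.26 (HepG2). The range of a probe set's 0 h means over the 9 lines had a median of 0.81 among the HOX genes and 0.976 among all probe sets, and 8 of the 27 ranged over more than 1 log2 unit, against 48.6% of all. Across the 4 lymphoblastoid lines alone the median range was 0.353 against 0.388, and 0 of 27 exceeded 1 unit, against 2.77% of all. The 8 genes were HOXB9 (3.23), HOXB2 (2.35), HOXB6, HOXB4, HOXB3 and HOXC9, highest in K562, and HOXD10 (1.91) and HOXC10 (1.61), highest in AG09309.

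**Figure D1:**
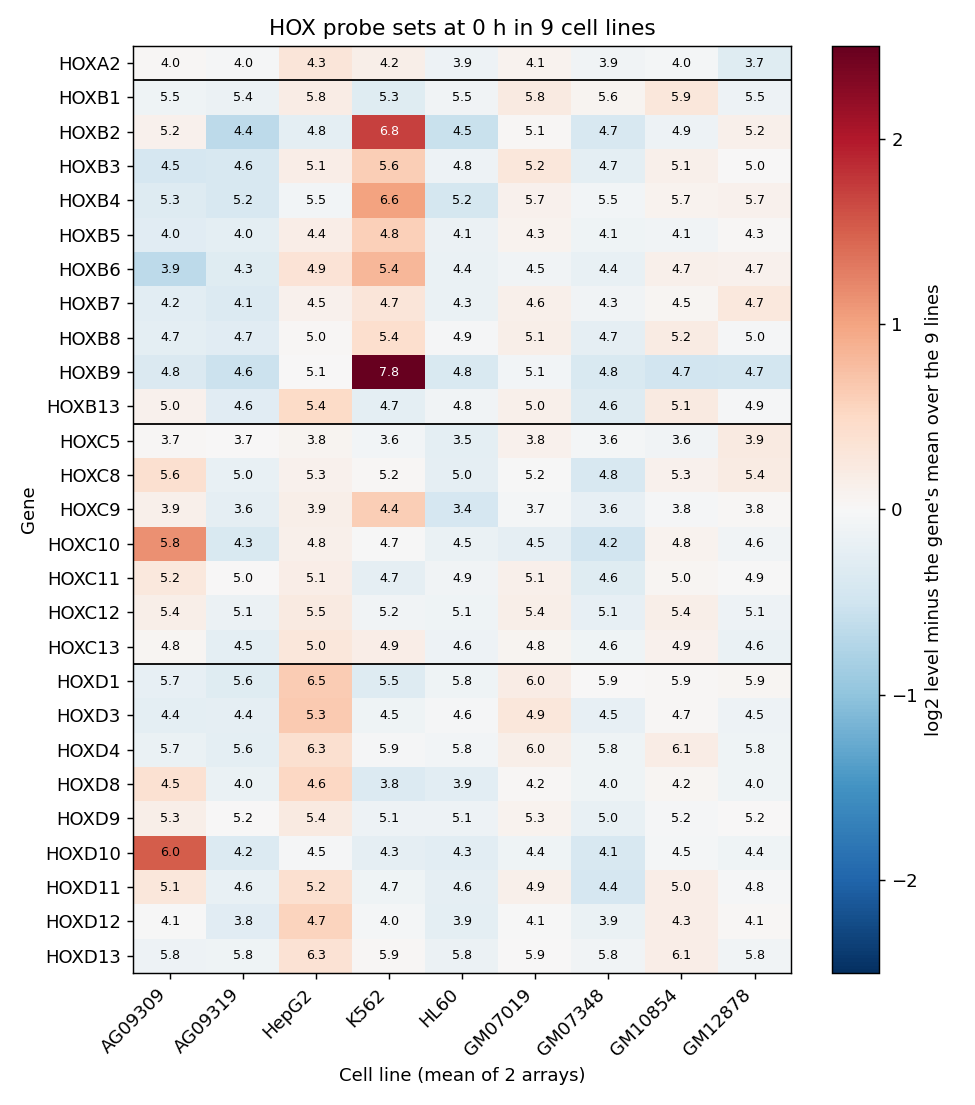
Levels of the 27 HOX probe sets at 0 h in the 9 cell lines. The number in each cell is the mean log2 level of 2 arrays, the colour is that mean minus the gene's mean over the 9 lines, and black lines part the HOXA, HOXB, HOXC and HOXD clusters. HOXB9 and HOXB2 stand out in K562 (7.83 and 6.76), and HOXD10 and HOXC10 in AG09309 (6.03 and 5.83).

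The first comparison asks whether the fibroblast lines differ in their HOX genes. HOXD10 and HOXC10, posterior genes active in the lumbar region and the limb bud, were higher in AG09309 than in AG09319 at 0, 8 and 36 h, by 1.47 to 2.57 log2 units. HOXB2, an anterior gene of the hindbrain and neck, was higher in AG09309 at the same times by 0.75 to 1.06. At 36 h the posterior genes HOXD11, HOXC11 and HOXC9 were higher as well. No HOX gene was called lower in AG09309 at any of the 3 times.

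HOXD10 read 6.03 and 6.03 in AG09309 at 0 h, 5.71 and 6.45 at 8 h, and 6.68 and 6.56 at 36 h. In AG09319 it read 4.06 and 4.33 at 0 h, 4.13 and 4.79 at 8 h, and 3.72 and 4.38 at 36 h. All 6 AG09309 arrays were above all 6 AG09319 arrays. The difference was 1.84 ± 0.24 at 0 h (standard error; limma, adjusted p = 2.61e-07), or 3.59-fold, 1.62 ± 0.24 at 8 h (adjusted p = 5.25e-06) and 2.57 ± 0.24 at 36 h (adjusted p = 1.37e-10), or 5.96-fold. The error comes from the spread shared by the 27 groups of arrays, since 2 arrays alone give a poor estimate.

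HOXC10, the paralog of HOXD10 on another chromosome, read 6.07 and 5.59 in AG09309 at 0 h, 5.94 and 5.82 at 8 h, and 5.74 and 5.88 at 36 h. In AG09319 the arrays read 4.30 and 4.33, then 4.16 and 4.48, then 4.42 and 4.26. These levels were steady in both lines, and the groups did not overlap. The differences were 1.52 ± 0.22 at 0 h (limma, adjusted p = 4.48e-06), 1.56 ± 0.22 at 8 h (adjusted p = 4.17e-06) and 1.47 ± 0.22 at 36 h (adjusted p = 7.96e-06), close to 2.8-fold at each time (2.86, 2.95 and 2.77).

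HOXB2 read 5.05 and 5.30 in AG09309 at 0 h, 5.43 and 5.43 at 8 h, and 5.12 and 5.66 at 36 h. In AG09319 it read 4.62 and 4.22, then 4.31 and 4.62, then 4.42 and 4.24. The groups did not overlap here either, but the gap was narrower. The differences were 0.75 ± 0.22 at 0 h (limma, adjusted p = 0.0284), 0.96 ± 0.22 at 8 h (adjusted p = 0.00374) and 1.06 ± 0.22 at 36 h (adjusted p = 0.00102). The 0 h call was lost when the fit held only the compared lines (adjusted p = 0.133) and when 1 array was left out: AG09309 replicate 1 (0.0601), AG09309 replicate 2 (0.303) or AG09319 replicate 2 (0.342). The 8 h call was lost with the compared lines only (0.0586) and with weighted arrays (0.698), and the 36 h call without AG09309 replicate 2 (0.0878).

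**Figure D2:**
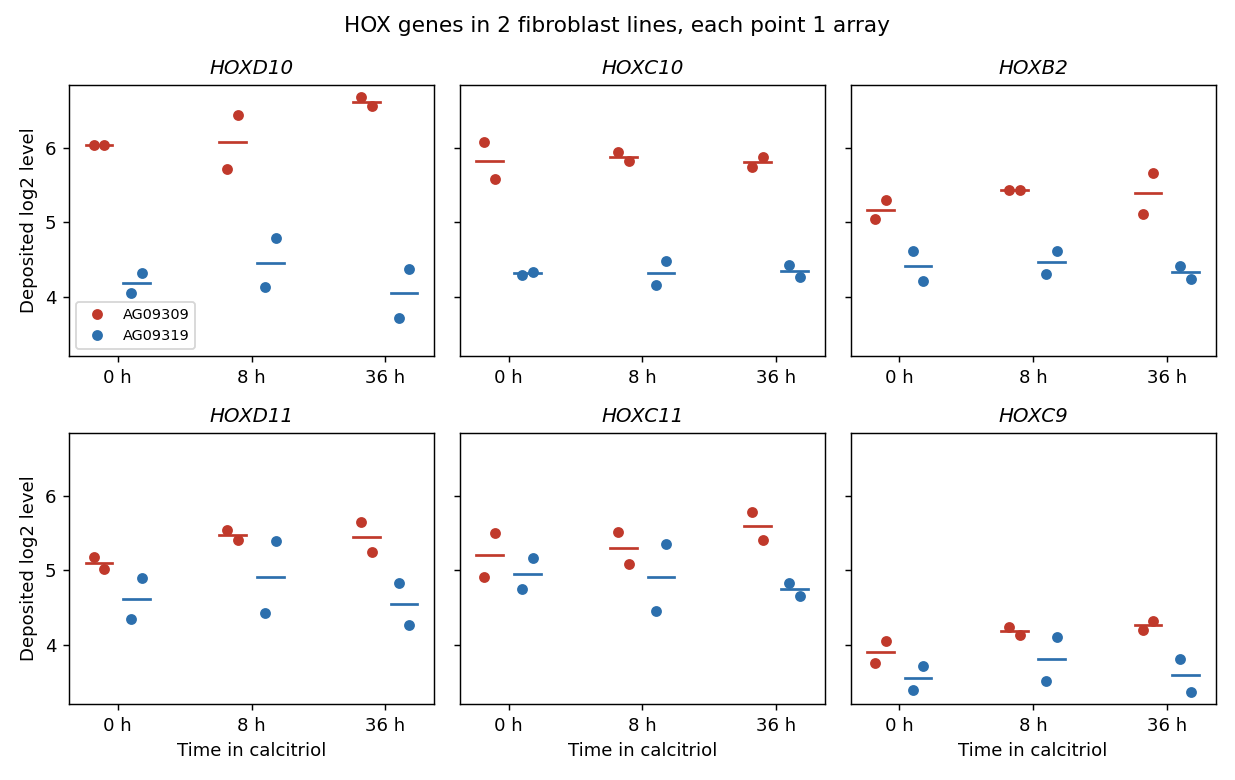
Deposited log2 levels of 6 HOX genes in the fibroblast lines AG09309 (red) and AG09319 (blue) at 0, 8 and 36 h. Each point is 1 array and each short line the mean of 2. HOXD10, HOXC10 and HOXB2 show no overlap at any time, while HOXD11, HOXC11 and HOXC9 passed the test at 36 h only.

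At 0 h, 3 of 27 HOX probe sets were called higher in AG09309 (11.1% of them, background 3.57% of all probe sets) and 0 lower (background 4.13%). The 24 that were not called differed by -0.34 to 0.59, with 95% intervals reaching from -0.81 to 1.11. The median difference of the 27 was 0.14 against -0.02 over all probe sets. By cluster, 1 of 10 HOXB, 1 of 7 HOXC, 1 of 9 HOXD and 0 of 1 HOXA genes were called, and all 7 HOXC genes had a difference above 0, with a median of 0.30. HOXC8, a thoracic gene, was the nearest to a call, with 5.71 and 5.52 in AG09309 against 4.90 and 5.16 in AG09319, a difference of 0.59 ± 0.22 (limma, adjusted p = 0.119).

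At 8 h the same 3 genes were called higher (background 6.03%) and 0 lower (background 3.24%). This time rests on the AG09319 array that stood apart, in which 27 of 27 HOX probe sets read above its replicate: HOXD12 read 5.43 there and 3.90 in the other array, HOXB8 5.93 and 4.59, and HOXB9 5.62 and 4.71. Its fibroblast markers had a mean of 8.66 against 9.38 in the other array and 9.45 to 9.78 at 0 h and 36 h, while the markers of every other cell type listed read higher in it than in its replicate: hepatocyte 4.78 against 3.80, promyelocyte 6.11 against 5.29, B cell 5.14 against 4.45, keratinocyte 4.87 against 4.62 and erythroid 5.46 against 5.24. Their part in the result was not tested. Without the 3 arrays that stood apart, 6 genes were called higher at 8 h (HOXB2, HOXC10, HOXC11, HOXD8, HOXD10 and HOXD11) and 0 lower. With that array left out alone there were 5 (without HOXC11). With its replicate left out instead, so that it alone stood for AG09319, 3 were called higher and 11 lower. When arrays were weighted by how well they matched the rest, 0 were called at 8 h, with adjusted p = 0.0777 for HOXD10 and 0.0641 for HOXC10.

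At 36 h, 6 genes were called higher (22.2%, background 4.55%) and 0 lower (background 3.69%). HOXD11, which patterns the forearm, lower leg and lumbar spine together with its paralogs, read 5.65 and 5.24 in AG09309 and 4.84 and 4.26 in AG09319, a difference of 0.90 ± 0.22 (limma, adjusted p = 0.00637). HOXC11 read 5.78 and 5.41 against 4.83 and 4.66, a difference of 0.85 ± 0.24 (adjusted p = 0.0187). HOXC9 read 4.21 and 4.32 against 3.81 and 3.37, a difference of 0.67 ± 0.21 (adjusted p = 0.038). Over all 6 arrays of a line, the 2 lines overlapped in each of these 3 genes. HOXD11 lay between 5.02 and 5.65 in AG09309 and between 4.26 and 5.39 in AG09319. HOXC11 lay between 4.91 and 5.78 against 4.46 and 5.36, and HOXC9 between 3.75 and 4.32 against 3.37 and 4.10. By position, 5 of the 12 genes numbered 9 to 13 were called at 36 h and 1 of the 15 numbered 1 to 8. At 0 h and again at 8 h it was 2 of the 12 and 1 of the 15. HOXD12, between HOXD11 and HOXD13 in the cluster, read 3.52 and 3.94 in AG09309 and 3.64 and 3.57 in AG09319, and its difference of 0.12 ± 0.30 did not pass (adjusted p = 0.908). The count fell to 3 (HOXB2, HOXC10 and HOXD10) when the fit held only the compared lines, or without AG09309 replicate 1 or AG09319 replicate 2 at 36 h. HOXC9 also lost its call with all probe sets of the table (adjusted p = 0.0566) and without AG09309 replicate 2 (0.22), and HOXC11 without AG09319 replicate 1 (0.0608).

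Over all times, 3 HOX genes (HOXB2, HOXC10, HOXD10) had all 6 AG09309 arrays above all 6 AG09319 arrays, against a background of 3.19% of all probe sets, and 0 had them all below (background 1.94%). After quantile normalization of the arrays the same 3 genes were counted above (background 3.32%) and 0 below (background 2.25%). Without the AG09319 array that stood apart, HOXC8 and HOXD11 joined them, making 5 (background 3.97%), with 0 below (background 4.3%). The difference between the lines was not shown to change with time: 0 of 27 genes passed the test of the difference of the changes at 8 h (background 1.47% in either direction) or at 36 h (background 2.34%), and HOXD10 at 36 h had the smallest p, with 0.73 ± 0.33 (limma, adjusted p = 0.373).

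**Figure D3:**
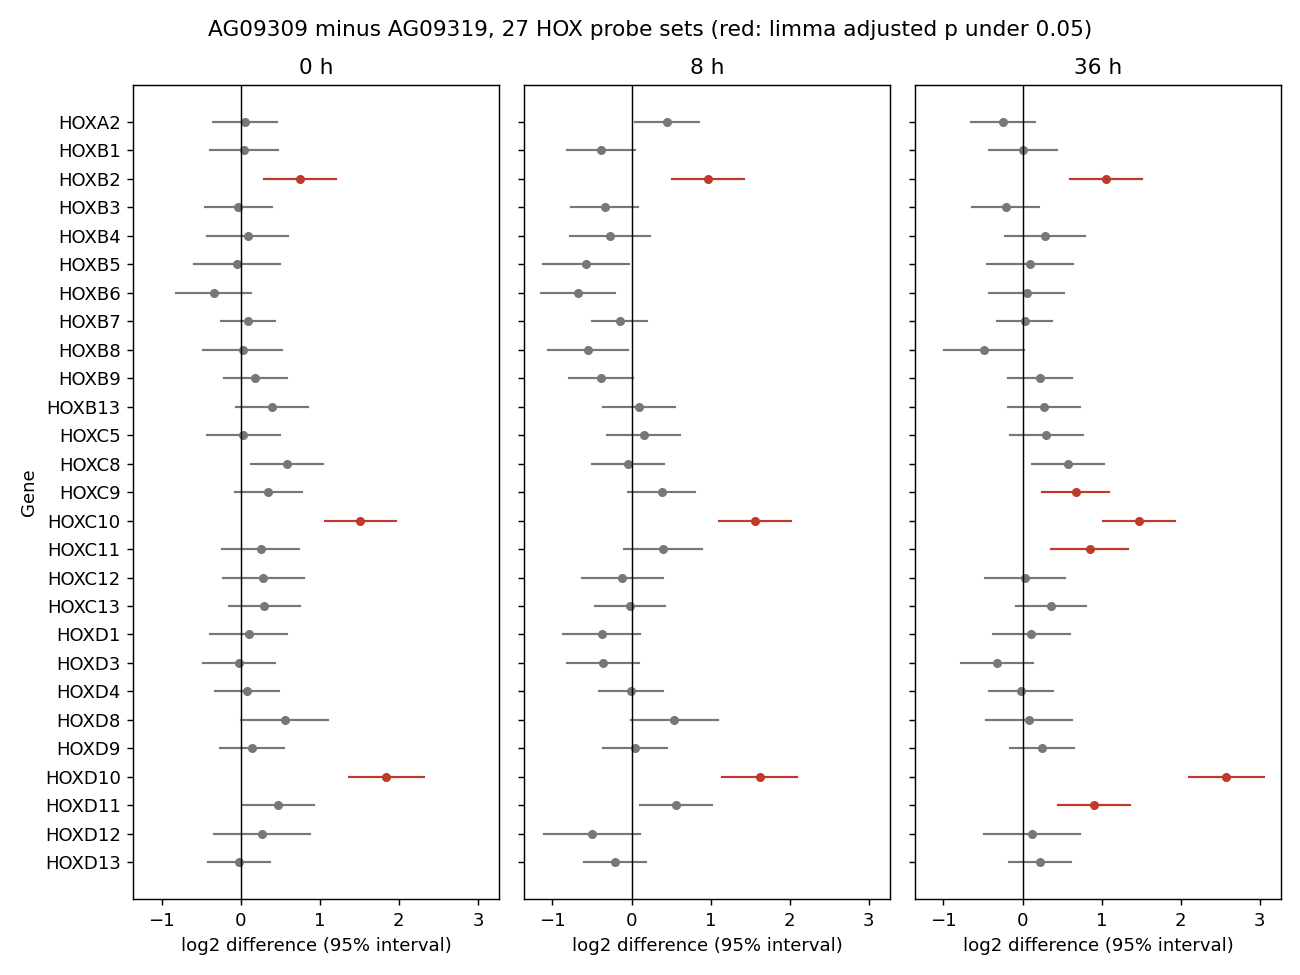
Difference in log2 level, AG09309 minus AG09319, for the 27 HOX probe sets at 0, 8 and 36 h, with 95% intervals from limma; red marks an adjusted p under 0.05. HOXB2, HOXC10 and HOXD10 are red in all 3 panels, and HOXC9, HOXC11 and HOXD11 in the 36 h panel only.

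B cell markers stood high in both AG09309 arrays at 0 h and not later, which touches every comparison that uses those arrays, the changes over time included. The 7 measured markers had a mean level of 5.87 in both 0 h arrays and 4.13 to 4.49 in the 8 h and 36 h arrays. MS4A1, the B cell surface protein CD20, read 8.15 and 8.07 at 0 h and as low as 2.85 later, against 3.02 to 3.89 in AG09319, and 1 of the 7 was above the 75th percentile at 0 h. The fibroblast markers of these 2 arrays had means of 9.65 and 9.54, against 9.72 to 9.97 later. Whether the arrays held RNA of other cells was not tested. HOXD10 and HOXC10 had lymphoblastoid 0 h means of 4.36 and 4.52, below AG09309, and their fibroblast differences were 1.84 and 1.52 at 0 h and 2.57 and 1.47 at 36 h. HOXB2 had a lymphoblastoid mean of 4.97, between the fibroblast lines, and its difference was 0.75 at 0 h and 1.06 at 36 h. Of 7 measured keratinocyte and epithelial markers, 1 was above the 75th percentile in AG09309 at 0 h, and DSP, a desmosome protein, had a mean of 9.62 there against 6.32 in AG09319; its part in the HOX differences was not tested.

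Set against all lines, 2 HOX genes, HOXC10 and HOXD10, had all 6 AG09309 arrays above all 48 other arrays (background 1.33%). For HOXD10 the order of the lines by the mean of 6 arrays was AG09309 (6.25 ± 0.38, SD, n = 6), HepG2 (4.64 ± 0.18), GM10854 (4.52 ± 0.16), K562 (4.43 ± 0.14), GM07019 (4.35 ± 0.20), GM12878 (4.32 ± 0.19), HL60 (4.29 ± 0.22), AG09319 (4.23 ± 0.36) and GM07348 (4.17 ± 0.24). Every neighbouring pair after the first overlapped in its arrays. For HOXC10, AG09309 (5.84 ± 0.17) was followed by K562 (4.87 ± 0.29) and HepG2 (4.78 ± 0.23), and GM07348 (4.20 ± 0.19) was last, again with overlap between all neighbours below AG09309. AG09319 was eighth in both orders, among the blood and liver lines. It had 0 HOX genes with all its arrays above (background 0.596%) or below (background 0.0976%) those of all other lines.

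Tested at 0 h against the mean of the 4 lymphoblastoid lines, a reference that 5 comparisons share, AG09309 had 2 HOX genes higher (background 17.8%) and 3 lower (background 20.7%). HOXD10 was higher by 1.68 ± 0.19 (limma, adjusted p = 1.59e-09) and HOXC10 by 1.31 ± 0.18 (adjusted p = 1.23e-07). HOXB6 was lower by 0.64 (-0.64 ± 0.18, adjusted p = 0.00536), and the others lower were HOXB3 (-0.47 ± 0.17) and HOXB7 (-0.35 ± 0.14). AG09319 had 0 higher (background 19.9%) and 3 lower (background 19.4%): HOXB2 (-0.56 ± 0.18, adjusted p = 0.0109), HOXB3 (-0.45 ± 0.17) and HOXB7 (-0.44 ± 0.14). The median over all probe sets was itself -0.15 for AG09309 and -0.12 for AG09319, so these HOXB values are to be read against that shift. After quantile normalization AG09309 had 7 higher (HOXC8, HOXC9, HOXC10, HOXC11, HOXD8, HOXD10 and HOXD11) and 1 lower (HOXB6), and AG09319 had 0 in either direction. The lower HOXB calls also rested on single arrays: 0 were called lower in AG09309 without its replicate 1, and in AG09319 the count was 1 without replicate 1 (HOXB2) and 1 without replicate 2 (HOXB7). With reference lines of the same title style only, chosen after seeing the data, AG09309 had HOXC8, HOXC10 and HOXD10 higher and HOXB3 and HOXB6 lower, and AG09319 had HOXB2 and HOXB7 lower.

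Of the HOX differences tested, the largest were those of HOXB9 in K562. HOXB9 and HOXB2 had all 6 K562 arrays above all 48 others (background 3.41%). At 0 h 6 of 10 HOXB genes were higher than in the lymphoblastoid lines (background 20.1% of all probe sets), against 1 of 7 HOXC, 0 of 9 HOXD and 0 of 1 HOXA genes. The raised genes did not make up the whole cluster: HOXB1, HOXB7, HOXB8 and HOXB13 were not called. HOXB7 and HOXB8 still had their highest 0 h means in K562 (4.74 and 5.39). K562 had the lowest HOXB1 mean of the 9 lines at 0 h (5.28). Over 6 arrays a line, its HOXB1 mean (5.51) was above those of HL60 (5.44) and AG09309 (5.41), with overlap. K562 had 0 HOX genes with all arrays below the others (background 0.658%), and AG09309 likewise (background 0.103%). HL60 had 0 above (background 2.71%) or below (background 1.03%) all other lines, and HepG2 0 above (background 3.56%) or below (background 2.02%).

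HOXB9, a gene of the thoracic region, read 7.83 and 7.84 in K562 at 0 h, 7.73 and 7.46 at 8 h, and 7.91 and 8.04 at 36 h. In the other 8 lines its arrays lay between 4.39 and 5.62, the highest being the AG09319 array that stood apart. The difference to the lymphoblastoid mean of 4.80 was 3.03 ± 0.16 (limma, adjusted p = 2.17e-18), or 8.18-fold. HOXB2 read 7.18 and 6.35 in K562 at 0 h, 6.29 and 6.33 at 8 h, and 7.03 and 6.69 at 36 h, and the next line in order was AG09309, with 5.05 to 5.66. Its difference to the lymphoblastoid mean was 1.79 ± 0.18 (adjusted p = 1.05e-10), or 3.46-fold. The other lines followed each other with overlap in both genes.

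HOXB4, known for widening the pool of blood stem cells, read 7.03 and 6.19 in K562 at 0 h and was higher by 0.95 ± 0.20 (limma, adjusted p = 0.000176). Its K562 arrays, from 5.94 to 7.03, overlapped with those of GM07019 (5.58 to 5.97). HOXB6 (0.84 ± 0.18), HOXB5 (0.62 ± 0.21) and HOXB3 (0.57 ± 0.17) were higher too, as was HOXC9 (0.69 ± 0.17). In all 7 HOX genes were higher (25.9%, near the background of 20.1%) and 0 lower (background 13.9%), and the median of the 27 was 0.02 against -0.05 over all probe sets. The HOXB cluster alone had a median of 0.60, and its genes ran from -0.41 to 3.03. Without K562 replicate 1 at 0 h, 4 were called: HOXB2, HOXB3, HOXB6 and HOXB9. Against the 3 lymphoblastoid lines of the same title style the same 7 genes were higher, and HOXB1 was lower.

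HL60 against K562 at 0 h, 2 myeloid leukaemia lines, had 8 HOX genes lower in HL60 (29.6%, background 13%) and 0 higher (background 10.6%). HOXB9 differed by -3.07 ± 0.20 (limma, adjusted p = 2.9e-15), with 4.94 and 4.59 in HL60. HOXB2 differed by -2.25 ± 0.22 (adjusted p = 2.29e-10), with 4.46 and 4.57 in HL60, and HOXB4 by -1.44 ± 0.25 (adjusted p = 2.06e-05), with 5.24 and 5.10. HOXC9 (-1.04 ± 0.21), HOXB6 (-0.99 ± 0.23), HOXB3 (-0.75 ± 0.21), HOXB5 (-0.74 ± 0.27) and HOXB7 (-0.48 ± 0.17) were the others. The count was 5 (HOXB2, HOXB4, HOXB6, HOXB9 and HOXC9) without HL60 replicate 2 and also without K562 replicate 2. Against the lymphoblastoid mean, HL60 had 0 HOX genes called by limma (background 25.3% in either direction), 3 had an unadjusted p under 0.05, and the smallest adjusted p was 0.0526. Leaving out 1 lymphoblastoid array (GM07019 replicate 2, GM07348 replicate 2 or GM12878 replicate 1) brought 1 call, HOXB2 lower. Quantile normalization brought 2 lower, HOXB2 and HOXB4.

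**Figure D4:**
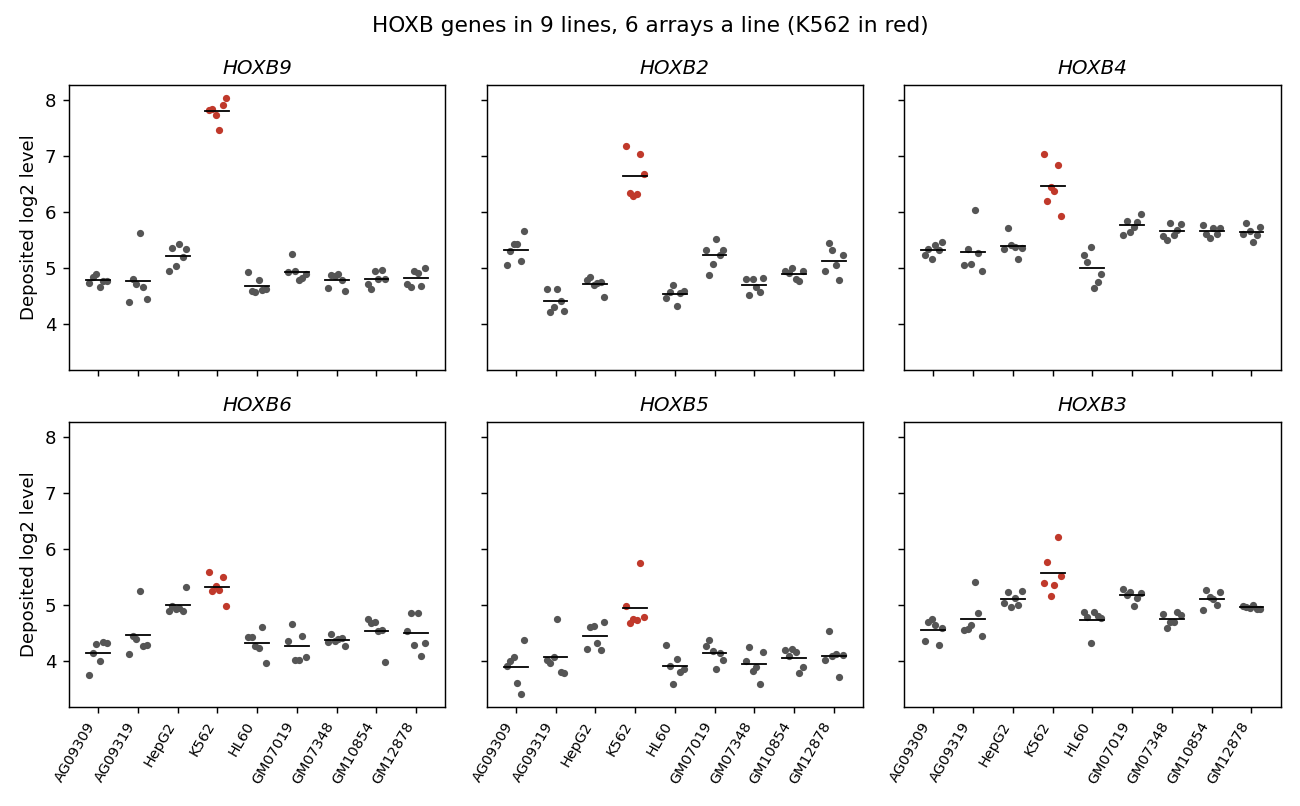
Deposited log2 levels of 6 HOXB genes in the 9 lines, 6 arrays a line (0, 8 and 36 h), K562 in red and the line's mean as a bar. All K562 arrays of HOXB9 (7.46 to 8.04) and HOXB2 (6.29 to 7.18) lie above every other array, and those of HOXB4, HOXB6, HOXB5 and HOXB3 overlap with other lines.

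In HepG2 the share of HOX genes higher than in the lymphoblastoid lines was near the background. At 0 h 6 were called higher (22.2%, background 24.2%) and 0 lower (background 21.1%): HOXD3 (0.66 ± 0.18), HOXD1 (0.57 ± 0.19), HOXD8 (0.56 ± 0.21), HOXB13 (0.48 ± 0.18), HOXD11 (0.43 ± 0.18) and HOXA2 (0.39 ± 0.16). The median over all probe sets was 0.17 in the same direction, and the median of the 27 was 0.26. All 9 HOXD genes had a difference above 0, with a median of 0.43. HOXD1 read 6.29 and 6.69 at 0 h, 6.46 and 6.52 at 8 h, and 6.06 and 6.30 at 36 h. These calls rest on the HepG2 array that stood apart, replicate 2: without it 1 gene was called (HOXA2), and without replicate 1 there were 14. Against GM12878, the lymphoblastoid line of the same title style, HOXA2, HOXD1, HOXD3 and HOXD4 were higher. HepG2 against AG09309 gave 6 HOX genes higher (22.2%, below the background of 32.6%). They were led by HOXB6 (0.99 ± 0.23, limma, adjusted p = 0.000631) and HOXD3 (0.90 ± 0.23), followed by HOXD1, HOXB3, HOXD4 and HOXD13 (0.49 to 0.84). The median over all probe sets was 0.234 in the same direction, and the median of the 27 was 0.275. This comparison gave 2 lower (7.41%, background 23.6%): HOXD10 (-1.53 ± 0.24, limma, adjusted p = 1.62e-06) and HOXC10 (-1.01 ± 0.22, adjusted p = 0.000361). The total was 4 without HepG2 replicate 2 (HOXB6 higher and HOXC8, HOXC10 and HOXD10 lower) and 4 without AG09309 replicate 1, with HOXD10 and HOXC10 lower in both.

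The next comparison asks whether calcitriol and time changed the HOX genes. In none of the 18 comparisons of 8 h or 36 h with 0 h within a line was a HOX gene called by limma: 0 of 486 tests passed, 23 had an unadjusted p under 0.05, of which 10 were in AG09319 at 8 h, and the smallest adjusted p was 0.117. The background called in either direction was 4.91% in AG09309, 4.49% in AG09319, 1.84% in HepG2, 0.868% in HL60, 0.118% in GM07348, 0.0668% in GM10854, 0.0514% in GM07019 and in GM12878, and 0.0411% in K562 at 36 h. At 8 h it was 1.53% in AG09309, 0.324% in AG09319, 0.236% in HL60, 0.00514% in GM07348 and 0 in the other 5 lines. Changes of the 27 lay between -0.57 and 0.85. The 8 h and 36 h changes of a line share its 0 h arrays.

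HOXD10 in AG09309 read 6.03 and 6.03 at 0 h and 6.68 and 6.56 at 36 h, with no overlap, but the 0 h arrays are those with high B cell markers and the difference of 0.59 ± 0.24 did not pass (limma, adjusted p = 0.173, 95% interval 0.11 to 1.06). HOXA2 read 4.10 and 3.99 at 0 h and 3.34 and 3.67 at 36 h, a difference of -0.54 ± 0.20 (adjusted p = 0.122), and HOXD3 differed by -0.49 ± 0.23 (adjusted p = 0.265). With weighted arrays 3 genes were called there, HOXD10 (adjusted p = 0.043) higher and HOXA2 and HOXB8 lower. At 8 h the smallest p in AG09309 were of HOXD11 (0.37), HOXC9 (0.28) and HOXB13 (0.28), with adjusted p from 0.862.

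AG09319 at 8 h had 24 of 27 HOX differences above 0, with a median of 0.35 against 0.05 over all probe sets, and 0 were called (background 0.324%). HOXD12 (0.85 ± 0.30, limma, adjusted p = 0.117), HOXB9 (0.56 ± 0.20, adjusted p = 0.119) and HOXB13 (0.58 ± 0.22, adjusted p = 0.136) had the smallest p. These values include the array that stood apart, in which all 27 read above its replicate. Without the 3 arrays that stood apart, HOXD12 differed by 0.08, HOXB9 by 0.11 and HOXB13 by 0.26. At 36 h the smallest p in AG09319 were of HOXD8 (0.41), HOXA2 (-0.24) and HOXD9 (-0.18).

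K562 at 8 h had HOXB13 at 5.23 and 5.36 against 4.47 and 4.88 at 0 h, a difference of 0.62 ± 0.22 (limma, adjusted p = 0.728), followed by HOXD1 (0.55) and HOXB2 (-0.46). At 36 h HOXB13 (0.43), HOXD8 (0.51) and HOXB7 (0.31) led there, where the median over all probe sets was 0.13. Without the K562 array that stood apart these were 0.50, 0.45 and 0.10. In HL60, which differentiates along the monocyte path under calcitriol in other work, HOXB13 (-0.34), HOXB8 (-0.32) and HOXD3 (-0.28) led at 8 h, and HOXC10 (-0.35), HOXD1 (-0.37) and HOXB4 (-0.35) at 36 h, with adjusted p of 0.89 or more. HepG2 had HOXD3 (-0.38), HOXC8 (0.34) and HOXB8 (0.33) in front at 8 h and HOXD8 (-0.45), HOXD1 (-0.31) and HOXD3 (-0.26) at 36 h. Without the HepG2 array that stood apart they were -0.12, 0.80 and 0.64 at 8 h and -0.22, -0.11 and -0.001 at 36 h. None of these passed, with or without those arrays.

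Among the lymphoblastoid lines the smallest p at 36 h were of HOXB7 (0.39), HOXC9 (-0.39) and HOXD3 (-0.38) in GM07019, of HOXD11 (0.46), HOXB7 (0.34) and HOXC8 (0.43) in GM07348, of HOXC10 (-0.51), HOXB6 (-0.44) and HOXB13 (-0.40) in GM10854, and of HOXB6 (-0.49), HOXC8 (-0.39) and HOXB8 (-0.39) in GM12878. At 8 h they were of HOXD3 (-0.57), HOXB6 (-0.49) and HOXD11 (-0.40) in GM07019, of HOXD11 (0.39), HOXC8 (0.30) and HOXD4 (0.26) in GM07348, of HOXB1 (-0.37), HOXB8 (-0.34) and HOXD13 (-0.21) in GM10854, and of HOXC5 (-0.36), HOXB1 (0.28) and HOXB9 (0.25) in GM12878. None passed, with adjusted p of 0.605 or more. With the line as the replicate, the mean change over the 9 lines lay between -0.11 and 0.11 at 8 h (0 called by limma, 0 with an unadjusted p under 0.05, background 0 called) and between -0.23 and 0.11 at 36 h (0 called, 2 with an unadjusted p under 0.05, background 0.468%). HOXD1 (-0.23 ± 0.08, adjusted p = 0.192), HOXD3 (-0.19 ± 0.08) and HOXB8 (-0.17) had the smallest p at 36 h, and HOXA2 (-0.11), HOXC8 (0.11) and HOXD4 (0.07) at 8 h. The 95% intervals over the 27 genes reached from -0.38 to 0.29 over both times.

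**Figure D5:**
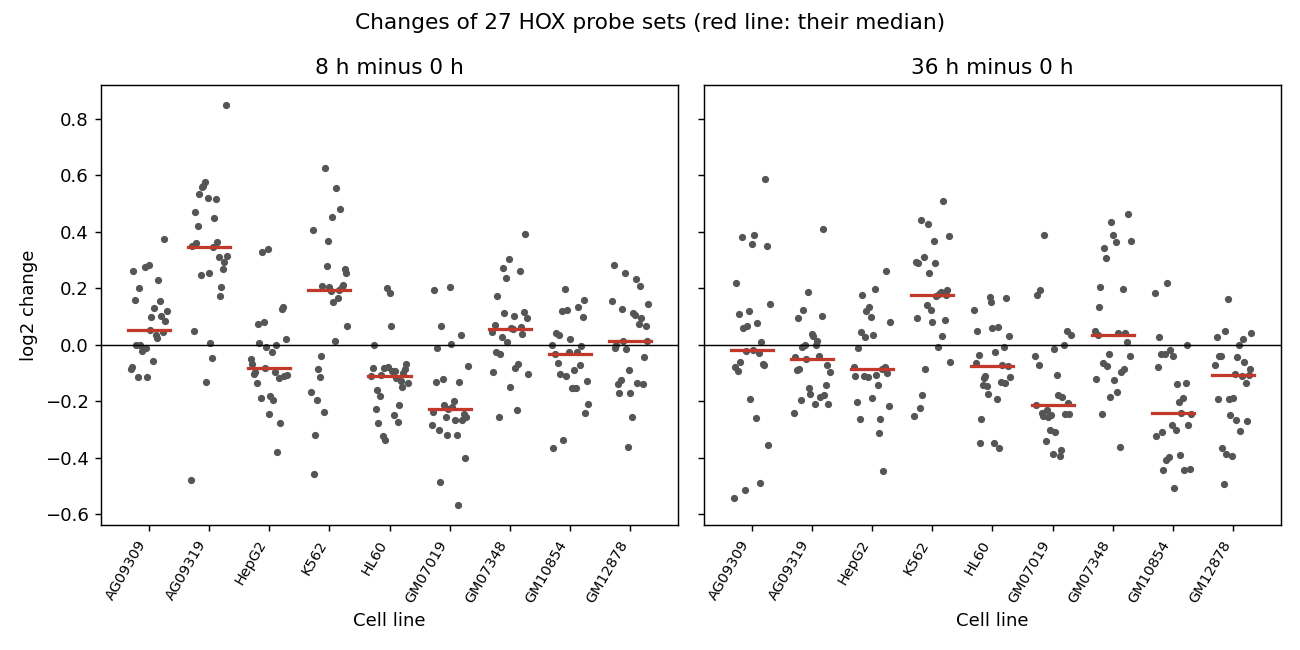
Change in log2 level of each of the 27 HOX probe sets (grey points) at 8 h and 36 h against 0 h in the 9 lines, with their median as a red line. The points lie between -0.57 and 0.85, none is called, and the highest median, 0.35, is that of AG09319 at 8 h.

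Other genes of positional identity and of HOX regulation were taken from gene lists and compared between the fibroblast lines at 0 h (background 3.57% higher and 4.13% lower in AG09309). Of 28 measured transcription factors of head mesenchyme and neural crest, 0 were higher and 6 lower in AG09309. PAX9, needed for teeth and palate, read 5.21 and 4.88 in AG09309 and 9.35 and 9.24 in AG09319, a difference of -4.25 ± 0.19 (limma, adjusted p = 4.03e-19). LHX8, a LIM homeodomain factor of tooth mesenchyme and palate, read 3.24 and 3.20 against 5.97 and 6.43, a difference of -2.98 ± 0.25 (adjusted p = 8.97e-12). These were larger than any HOX difference between the lines. PAX9 differed by -3.79 at 8 h and -4.21 at 36 h, and LHX8 by -2.58 and -3.04, all called. Counted over the list, 1 was higher and 5 lower at 8 h (backgrounds 6.03% and 3.24%), and 1 higher and 5 lower at 36 h (backgrounds 4.55% and 3.69%). The higher ones were TFAP2A at 8 h (0.69, limma, adjusted p = 0.022) and MSX2 at 36 h (0.91, adjusted p = 0.00821), named after their values were seen.

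DLX1 (-1.14 ± 0.17) and DLX5 (-1.10 ± 0.19), distal-less factors of the jaw, BARX1 (-0.87 ± 0.25), a factor of tooth and stomach mesenchyme, and TWIST1 (-0.61 ± 0.20, adjusted p = 0.0482) were the other head genes lower in AG09309. At 8 h BARX1 (-1.03), DLX1 (-0.69) and DLX5 (-0.69) were called and TWIST1 (-0.47, limma, adjusted p = 0.12) was not. The 8 h values include the AG09319 array that stood apart. With 1 array left out, BARX1 ran from -1.548 to -0.515, DLX1 from -0.748 to -0.637 and DLX5 from -0.878 to -0.504. Of the other alternatives, 3 of 9 ended the 8 h call of BARX1, 2 of 9 that of DLX1 and 3 of 8 that of DLX5. At 36 h BARX1 (-1.13), TWIST1 (-0.84) and DLX5 (-0.67) were called and DLX1 (-0.31, limma, adjusted p = 0.351) was not. The median of that list at 0 h was -0.08 against -0.02 over all probe sets. Of 21 measured limb and trunk factors, 1 was higher and 3 lower. TBX5, the T-box factor of forelimb and heart, read 5.42 and 5.42 in AG09309 and 4.44 and 4.59 in AG09319, a difference of 0.91 ± 0.20 (limma, adjusted p = 0.00134), with 0.81 at 8 h and 1.56 at 36 h. TBX2 (-1.0 ± 0.16), TBX3 (-0.97 ± 0.19) and SHOX2 (-0.63 ± 0.19), which also act in limb buds, were lower in AG09309, so this list held calls in both directions. The calls of BARX1, TWIST1, TBX5 and SHOX2 were lost with the compared lines only (adjusted p from 0.0866 for TBX5 to 0.226 for BARX1), and single arrays also ended calls at 0 h: TWIST1 and SHOX2 in 4 of 4 omissions (adjusted p up to 0.316 and 0.251) and BARX1 in 2 of 4 (up to 0.316). Over the list 1 was higher and 3 lower at 8 h, and 3 higher and 2 lower at 36 h. TBX4 and PITX1, of the same list, were not called at 0 h (-0.26 and 0.12). At 8 h TBX4 was called lower (-0.79, limma, adjusted p = 0.00716) and PITX1 was not called (-0.11). TBX2 was called at both times (-0.70 and -0.69), SHOX2 at 36 h only (-0.41 and -1.40), and TBX3 at neither (-0.23 and -0.28). With 1 array left out at 8 h, TBX5 ran from 0.443 to 1.172 and TBX2 from -0.893 to -0.496.

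HOX proteins bind DNA with TALE partners of the PBX, MEIS and PKNOX families, of which 7 were measured. MEIS1 was higher in AG09309 at 0 h (5.80 and 5.41 against 5.0 and 4.31, 0.95 ± 0.24, limma, adjusted p = 0.00863), and MEIS2 (5.73 and 5.59 against 6.85 and 6.80, -1.17 ± 0.17, adjusted p = 5.19e-06) and MEIS3 (-0.63 ± 0.17) were lower. MEIS1 differed by 1.24 at 8 h and 1.43 at 36 h, and its 0 h call was lost with the compared lines only (adjusted p = 0.181), without AG09309 replicate 1 (0.198) and without AG09319 replicate 2 (0.313). MEIS2 differed by -0.44 at 8 h, not called (limma, adjusted p = 0.0979), and -1.17 at 36 h, called. PKNOX1, another of the 7, was called higher at 36 h (0.63, limma, adjusted p = 0.0289) and not at 0 h (0.05) or 8 h (0.295). MEIS3 lost its 0 h call with the compared lines only (0.126) and without any 1 of the 4 arrays, and was not called at 8 h (-0.24) or 36 h (-0.16). Of 22 measured Trithorax, Polycomb and related chromatin genes, which keep HOX genes on or off, 0 were higher and 1 lower, KAT6A, a histone acetyltransferase (-0.61 ± 0.18, limma, adjusted p = 0.024), a call lost with the compared lines only (0.209) and in 3 of 4 omissions of an array (up to 0.38). It differed by -0.12 at 8 h and -0.14 at 36 h, neither called, and 2 other genes of the list were higher and 0 lower at each of these times. Of 12 measured genes in or beside the clusters, SKAP2, an adaptor protein gene next to the HOXA cluster, was higher (6.68 and 6.58 against 5.33 and 5.24, 1.35 ± 0.28, limma, adjusted p = 0.000984). It differed by 1.52 at 8 h and 0.90 at 36 h, the last a call lost without any 1 of the 4 arrays (limma, adjusted p from 0.107 to 0.244), and its lymphoblastoid mean was 7.12; the part of the B cell markers in it was not tested. LNPK, another of the 12, was called higher at 8 h (1.57, limma, adjusted p = 0.00464) and not at 0 h (0.48, adjusted p = 0.664). The 9 CDX and other ParaHox genes, relatives of HOX, had 0 calls at 0 h in either direction. In K562 against the lymphoblastoid mean, MEIS1 (5.06 against 3.40, 1.66 ± 0.19) and MEIS2 (6.36 against 4.81, 1.56 ± 0.14) were higher (background 20.1%). PBX3 (4.31 against 6.67, -2.35 ± 0.17) was lower (background 13.9%), and all of these had a limma adjusted p under 0.05. The other TALE genes in K562 are not given here, and a link to the raised HOXB genes was not tested.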

How the data were processed

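The 54 arrays were deposited by the authors as 1 table of log2 values for 33297 probe sets, made with Affymetrix Expression Console 1.0 and RMA per the submitters' processing notes. RMA takes logs of background-corrected, quantile-normalized probe signals. Its values can understate differences at low levels. Array medians over all probe sets ran from 4.98 to 5.31, and no source used here states whether the arrays were normalized together. Gene names came from GEO's platform annotation: 21214 probe sets are in that table, 19460 with 1 symbol, which were all tested. Groups came from the cell line and time labels. For GM10854 the titles name another line, and the cell line field was used. No source used here states how much calcitriol was given.

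Tests used limma 3.58.1 in R 4.3.3, two-sided, in 1 fit of 27 groups (27 residual and 8.89 prior degrees of freedom), with Benjamini-Hochberg adjustment over 19460 probe sets and a threshold of 0.05. The mean change over 9 lines used line means, with line and time as terms. Data were simulated for AG09309 against AG09319 at 0 h (19460 probe sets, 50 changed at each size). Of changes of 0.5, 1, 1.5 and 2 log2 units, 16%, 64%, 94% and 100% were called, and so were 9 unchanged probe sets. The simulated noise was independent and normal, with no array standing apart. The deposited data had more calls in this comparison (695 higher and 804 lower), so these shares need not hold there. No array pair was identical (0). The number of arrays limits the precision.

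HOX members, gene lists and comparisons were chosen with earlier results of these data known. Named were, for each comparison of levels, up to 10 genes that passed, for changes over time those that passed or the 3 with the smallest p, and for each list the 6 largest fibroblast differences at 0 h that passed. Named genes outside this rule were chosen after their values were seen. The alternatives were quantile normalization, median centring, a filter on low means, all probe sets, 1 probe set per gene, array weights, the compared lines only, a replicate block, leaving out arrays and, added after seeing the data, lymphoblastoid reference lines of the same title style.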

Additional observations from a re-analysis of the deposited data

Results flagged for a closer look

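Among the 4 lymphoblastoid lines at 0 h, GM07348 stood clear of the other 3 in 2 HOX genes. Its HOXB4 mean was 5.53 against 5.69 to 5.71 in the other 3, and its HOXD10 mean was 4.12 against 4.42 to 4.47. In each case the gap to the nearest line was a large share of the range over the 4 lines (0.92 and 0.858). Chance gives about 1 such gap in 20 sets of 4, and 27 genes were looked at. Over the 6 arrays of each line, the HOXB4 gap was absent: GM07348 had a mean of 5.66, GM10854 5.66 and GM12878 5.64. For HOXD10, GM07348 was still the lowest (4.17), with arrays that overlapped those of GM12878 (4.32).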

How the results depend on the processing

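Counts are HOX genes called by limma, of 27. HOXD10 and HOXC10 were called at 0 h and 36 h under 8 alternatives (at 0 h differences of 1.68 to 1.84 and 1.36 to 1.52), all but the filter on low means, which left 4 HOX genes (HOXB4, HOXD1, HOXD4 and HOXD13) in the table. With that filter the fibroblast counts were 0, 0 and 0 at 0, 8 and 36 h, and against the lymphoblastoid mean 0 in AG09309, 0 in AG09319, 1 in HL60, 1 in K562 and 3 in HepG2, with 1 for HL60 against K562 and 3 for HepG2 against AG09309. Quantile normalization gave 8 in AG09309, 0 in AG09319 and 2 in HL60 against the lymphoblastoid mean. Without the 3 arrays that stood apart there were 6 for the fibroblasts at 8 h, 2 for HL60 and 1 for HepG2. Array weights gave 0 for the fibroblasts at 8 h, 3 for AG09309 at 36 h, and 11, 1 and 0 for AG09309, HL60 and HepG2 against the lymphoblastoid mean. A fit of the compared lines only gave 3 for the fibroblasts at 36 h, and 9, 2 and 10 for AG09309, HL60 and HepG2 against the lymphoblastoid mean. Beyond the filter, where fewer genes were tested, the cause was not tested.

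Leaving out 1 array at a time gave 2 to 3 calls for the fibroblasts at 0 h, 3 to 14 at 8 h and 3 to 5 at 36 h. Against the lymphoblastoid mean it gave 2 to 5 in AG09309, 1 to 3 in AG09319, 0 to 1 in HL60, 4 to 8 in K562 and 1 to 14 in HepG2. HL60 against K562 had 5 to 8, HepG2 against AG09309 4 to 11, AG09319 at 8 h 0 to 20, and the difference of the fibroblasts' changes at 8 h 0 to 5. A lone array is taken to vary like the other groups.

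Replicate numbers did not pair the arrays in every line, and the main fit did not use them. Correlations of the replicate differences between times of a line ran from -0.414 to 0.585. All 3 were over 0.1 in 3 of 9 lines (GM07348, K562 and GM12878), with the highest in K562 (0.356 to 0.585). With a replicate block the fibroblast counts were 3, 3 and 6, and HepG2 against the lymphoblastoid mean had 9 in place of 6. Over all alternatives, 419 counts stayed within 1.5 times of the main value and 44 moved. The 419 include the counts of changes over time, which were 0 in the main fit and mostly stayed 0. Counts of levels moved more often. Leaving out 1 array at a time aside, those against the lymphoblastoid mean moved in 4 of 10 alternatives for AG09309, 5 of 10 for HL60 and 4 of 10 for HepG2. For AG09319 it was 2 of 10 and for K562 1 of 10.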

Other observations

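HOXC4 and HOXC6, which shared a probe set, read 4.56 and 4.88 in AG09309 at 0 h, 4.72 and 4.68 at 8 h, and 4.47 and 4.72 at 36 h. In AG09319 that probe set read 3.87 and 4.25, then 3.78 and 4.50, then 3.90 and 3.88. The lines overlapped only through the AG09319 array at 8 h that stood apart (4.50, against 4.47 as the lowest in AG09309). In GM12878 the 0 h arrays read 4.41 and 4.75, the first below the AG09309 arrays and the second among them.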
